A study of Mus musculus with 6 samples.

Results

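Amino acid transporter genes were examined in bulk RNA from mouse liver. They were taken from the gene table by symbol, as the solute carrier families Slc1, Slc3, Slc6, Slc7, Slc36, Slc38 and Slc43, which gave 37 of the 20140 listed genes. The table holds 10 members of Slc38, 9 of Slc7, 7 of Slc6, 4 of Slc1, 3 of Slc43, 2 of Slc3 and 2 of Slc36. Not all of them carry the amino acids found in proteins. Slc6a4 moves serotonin, Slc6a6 taurine, Slc6a8 creatine, Slc6a12 betaine and GABA, Slc6a13 GABA and taurine, and Slc43a3 nucleobases. Slc7a6os only shares part of its symbol with a transporter. The study had 3 groups with 2 livers each, all taken on day 21. For tumor models in general the methods name BALB/c or C57BL/6J mice of 6 to 10 weeks. Some legends of the work place its cecal and intrasplenic colorectal models in BALB/c mice. Others place them in mice with or without Lrg1 in hepatocytes, on a C57BL/6J background. The labels name no strain or age. Sham mice received PBS. Mice labelled intra-C are read as carrying colon carcinoma cells in the cecum, and those labelled intra-S as having received them into the spleen. This reading of the labels comes from the methods and legends of the work. It used CT26 cells in its BALB/c models and MC38 cells in others, and the labels do not say which line these mice received. The work describes the intra-C liver as premetastatic and the intra-S liver as metastatic. Both are mouse lines, so RNA of tumor cells in a liver is counted on the same genes as RNA of the host.

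The liver takes up amino acids from portal blood for protein synthesis, gluconeogenesis and urea formation. System A and system N carriers of the Slc38 family bring in alanine, serine and glutamine with sodium, and the Slc7 family supplies cationic amino acid carriers and the light chains of exchangers that need a heavy chain, Slc3a1 or Slc3a2, to reach the membrane. Slc1a4 and Slc1a5 exchange small neutral amino acids, Slc36 carriers move amino acids together with protons, Slc43a1 and Slc43a2 let large neutral amino acids through by facilitated diffusion, and the Slc6 members depend on sodium and chloride.

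Between 32838321 and 43368309 reads were counted per liver. The 2 livers of the sham group resembled each other most (Pearson correlation of log2 CPM across genes 0.993), followed by the intra-C livers (0.985), whereas the intra-S livers correlated at 0.945, and intra-S liver 2 was closer to both intra-C livers (0.974 with each) than to its own replicate. The members called in the intra-S group, and Slc38a2 and Slc38a3, are therefore also given without each of its livers. Among the cell markers, those of hepatocytes had a summed level of 126458 to 169294 TPM (transcript levels corrected for gene length and scaled to the same sum in each liver) with no group apart, and of 11 such markers 0 were called higher and 1 lower in intra-C and 2 higher and 2 lower in intra-S livers. Of 13 neutrophil markers, 12 were called higher in intra-C and 13 in intra-S livers, and their summed level was 10.3 to 14.8 TPM in sham, 905 to 2023 TPM in intra-C and 1387 to 3263 TPM in intra-S livers. Camp, Elane and Mpo had no count in any sham liver. Of 12 monocyte and macrophage markers, 8 and 7 were called higher (213 to 241, 703 to 1000 and 561 to 915 TPM in the same order), and of 8 endothelial markers, 4 and 5. Erythroid and proliferation markers were called higher for 7 of 10 and 7 of 12 genes in intra-S livers, and for 0 and 2 in intra-C livers. Erythroid markers summed to 874 to 1518 TPM in sham, 879 to 1298 TPM in intra-C and 3718 to 4888 TPM in intra-S livers. No marker of T and NK cells, B cells or exocrine pancreas was called against sham, and 3 of 9 stellate and fibroblast markers and 2 of 8 tested cholangiocyte and epithelial markers were higher in intra-S livers. The part of these cells in the transporter results was not tested, and in whole liver a change in the number of cells of a type and a change in the RNA per cell cannot be told apart.

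The transporter genes differed widely in level. With the mean over all 6 livers, 4 members were at 100 TPM or more, 8 between 10 and 100, 14 between 1 and 10, and 11 under 1 TPM. Slc38a3 and Slc38a4 were the most abundant, followed by Slc38a2 and Slc7a2. These 4 genes held 80.8% and 81.2% of the summed transporter TPM in the sham livers, 82.8% and 77.3% in the intra-C livers, and 72.7% and 79.5% in the intra-S livers. The summed TPM of all 37 members was 1736 and 1893 in sham, 2047 and 1601 in intra-C and 1122 and 1177 in intra-S livers, so that both intra-S livers lay below the other 4. The difference lay mainly in the Slc38 family, which had 1318 and 1456 TPM in sham livers and 668 and 883 TPM in intra-S livers, and in the Slc6 family, which had 217 and 239 TPM in sham and 110 and 95.6 TPM in intra-S livers. The Slc3 family went the other way, from 15.9 and 18.4 TPM in sham to 115 and 117 TPM in intra-C and 90.1 and 43.9 TPM in intra-S livers. These sums carry no test.

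**Figure D1:**
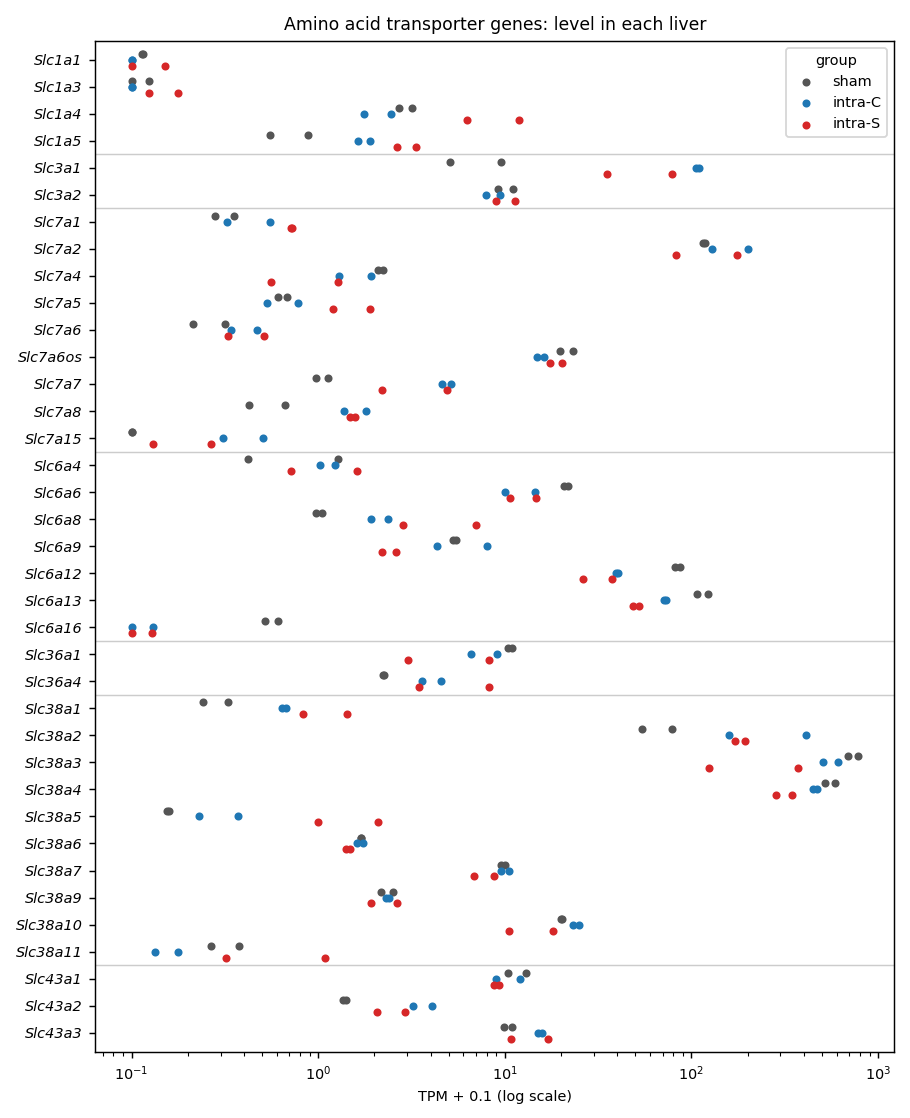
Level of each of the 37 transporter genes in each liver, as TPM + 0.1 on a log axis, ordered by family (grey lines separate families) with 2 points per group. Slc38a3 and Slc38a4 lie furthest right, and the points of Slc3a1 separate the sham livers (5.00 and 9.39 TPM) from the other 4 (35.0 to 109 TPM).

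**Figure D2:**
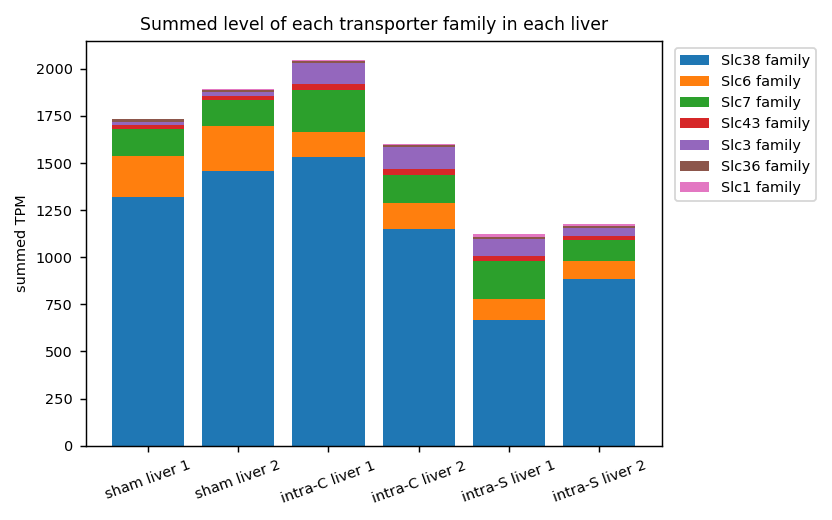
Summed TPM of each transporter family in each of the 6 livers, as stacked bars from 0. The total is lowest in the intra-S livers (1122 and 1177 TPM), and the Slc38 family makes up 59.5% to 76.9% of it.

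To ask which carriers differ in the liver described as premetastatic, intra-C livers were compared with sham livers. Of the 35 members with enough counts to be tested, 5 were called higher (Slc3a1, Slc7a7, Slc7a8, Slc38a2 and Slc43a2) and 0 lower, at an adjusted p under 0.05 in edgeR's quasi-likelihood test, with adjustment over the 16370 genes tested. This is 14.3% of the tested members called higher, where 4.92% of all tested genes were higher and 2.38% lower. Before adjustment, 14 of the 35 members had a p under 0.05, as did 27% of all tested genes. DESeq2 called 8 members higher, adding Slc1a5, Slc7a15 and Slc38a1, and 2 lower (Slc6a12 and Slc6a16), where it called 10.4% and 6.78% of all tested genes, so that the lower calls (5.71% of the members) were near the background. The median log2 fold change of the members was 0.38, against 0.01 over all tested genes. In CPM (counts relative to the TMM-scaled library size) the livers of the groups did not overlap for 19 members that were higher and 7 that were lower, while 68.4% of all tested genes did not overlap.

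In metastatic livers the same question was put to intra-S against sham. Here 9 members were called higher (Slc1a4, Slc1a5, Slc3a1, Slc6a8, Slc7a7, Slc7a8, Slc38a1, Slc38a5 and Slc43a2) and 2 lower (Slc6a12 and Slc6a13), or 25.7% and 5.71% of those tested, beside 6.78% and 3.95% of all tested genes. The share called lower was thus near the background. Before adjustment, 20 of the 35 members had a p under 0.05, as did 30.2% of all tested genes. DESeq2 called 14 members higher, adding Slc7a1, Slc7a5, Slc7a15, Slc36a4 and Slc38a2, and 4 lower, adding Slc6a16 and Slc38a3, where it called 12.6% and 8.95% of all tested genes. Its lower calls (11.4% of the members) were also near the background. The median log2 fold change was 0.72, against 0.04 over all tested genes. In CPM the groups did not overlap for 16 members that were higher and 9 that were lower, and 60.4% of all tested genes did not overlap. With either intra-S liver left out, the fold changes of these 11 members kept their direction. Such a fit leaves 1 intra-S liver, so the spread of that group is taken from the other groups. In a fit of only the sham and intra-S livers none of the 11 calls passed, while 276 genes were higher and 116 lower over the whole table. Both comparisons rest on the same 2 sham livers. With either sham liver left out, no gene of the whole table passed the test in edgeR, and with either intra-C liver left out, none of the 5 intra-C calls and none of the 11 intra-S calls passed. The balance of calls over all genes also depends on the scaling: 806 genes were higher and 389 lower in intra-C livers and 1110 and 646 in intra-S livers with TMM, but 569 and 801 and then 838 and 1116 with plain library sizes. With these, 1 member (Slc6a12) was also lower in intra-C livers and Slc43a2 was not called in intra-S livers.

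**Figure D3:**
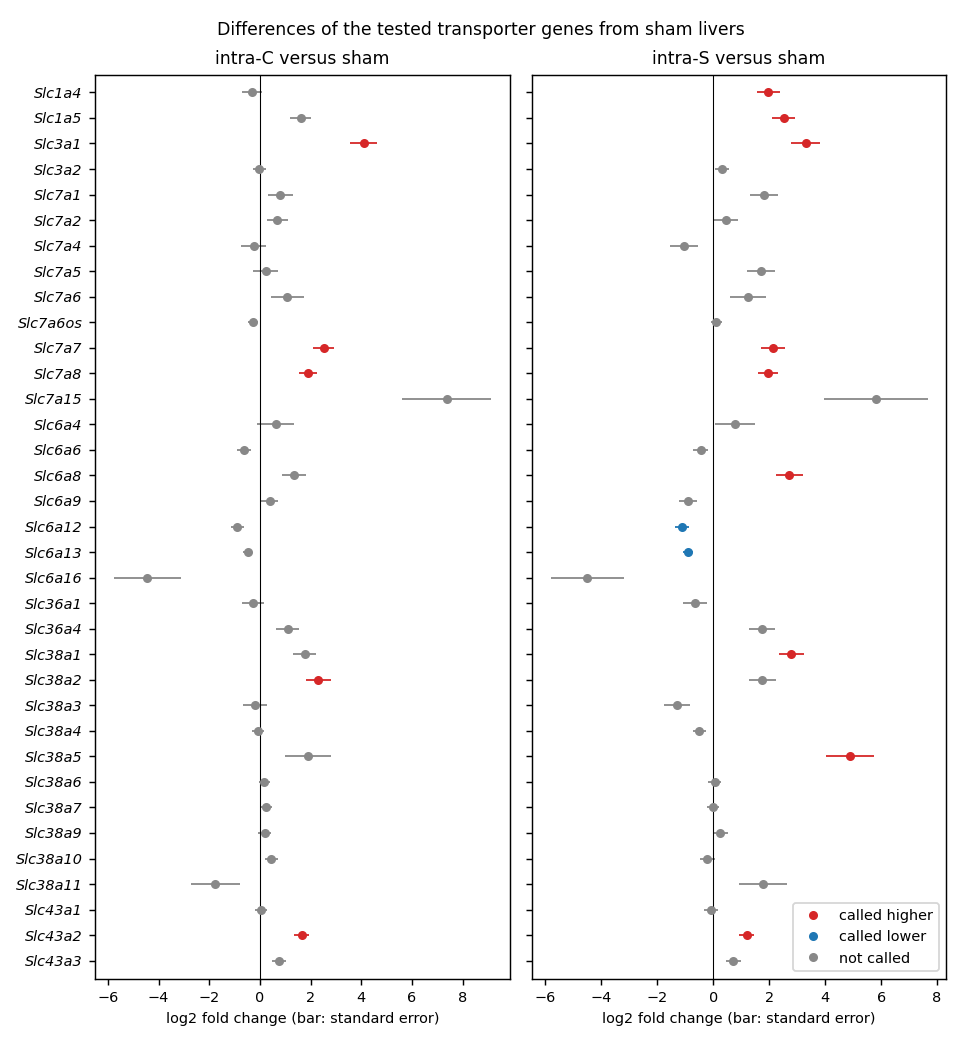
Log2 fold change of the 35 tested transporter genes in intra-C against sham (left) and intra-S against sham livers (right), with bars of 1 standard error and red or blue points where the adjusted p was under 0.05. Slc3a1 is red in both panels (4.09 and 3.30), and the blue points of Slc6a12 and Slc6a13 appear only in the right panel.

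The heavy chains showed the clearest contrast. Slc3a1 (rBAT), the heavy chain of the exchanger for cystine and dibasic amino acids best known from kidney and gut, lies on chr17:85028347-85064241 (GRCm38, the build of these data). Its level was 5.00 and 9.39 TPM in sham, 106 and 109 TPM in intra-C and 78.8 and 35.0 TPM in intra-S livers. All 4 livers of tumor-bearing mice stood above the sham livers, and the intra-C livers lay close together. The log2 fold change was 4.09 ± 0.52 (SE, n = 2 per group, edgeR adjusted p = 0.0132), or 17.0-fold, in intra-C livers and 3.30 ± 0.50 (adjusted p = 0.0156), or 9.84-fold, in intra-S livers. In intra-S livers it was 2.53 without liver 1 and 3.80 without liver 2. Slc3a1 shares 26.5% of its exon bases (601 of 2271) with Prepl on the opposite strand by the GENCODE M21 models, which may differ from the annotation the authors used. The library kit named in the labels does not mark strand, so reads in that stretch cannot be told apart. Prepl was itself higher in intra-C livers, with a log2 fold change of 1.49 ± 0.22 (edgeR adjusted p = 0.0195). Its counts were 809 and 793 in sham, 2193 and 1626 in intra-C and 1104 and 951 in intra-S livers, beside 426 counts of Slc3a1 in the higher sham liver and 1737 to 5010 in the other 4. The other heavy chain, Slc3a2 (4F2hc), which serves most light chains, was at 10.9 and 9.05 TPM in sham, 9.38 and 7.84 TPM in intra-C and 11.3 and 8.89 TPM in intra-S livers. These groups overlapped in both comparisons, and the log2 fold changes were -0.02 ± 0.24 (edgeR adjusted p = 0.966) and 0.32 ± 0.24 (adjusted p = 0.421). In TPM, Slc3a2 was the more abundant chain in sham liver 1, the chains were nearly equal in sham liver 2, and Slc3a1 was the more abundant in all 4 others.

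The 250 bases before the annotated start of Slc3a1 and Slc7a7, the 2 members with the largest fold changes among the genes called in both comparisons, are shown first. Those of Slc6a13 and Slc6a12, neighbouring genes that were both called lower, follow. All are from RefSeq on GRCm38.p6 and read 5′ to 3′ on the strand of the gene. Capitals mark a match to TGATGNAA, the letters of the amino acid response element bound by ATF4 and CCAAT-enhancer binding proteins. The start used for Slc7a7 lies inside the annotated span of the gene.
Slc3a1, chr17:85028097-85028346, plus strand: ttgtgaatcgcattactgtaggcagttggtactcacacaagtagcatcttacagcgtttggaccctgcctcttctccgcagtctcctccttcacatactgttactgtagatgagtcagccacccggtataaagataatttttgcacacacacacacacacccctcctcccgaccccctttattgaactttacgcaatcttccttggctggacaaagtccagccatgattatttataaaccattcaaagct
Slc7a7, chr14:54417945-54418194, minus strand: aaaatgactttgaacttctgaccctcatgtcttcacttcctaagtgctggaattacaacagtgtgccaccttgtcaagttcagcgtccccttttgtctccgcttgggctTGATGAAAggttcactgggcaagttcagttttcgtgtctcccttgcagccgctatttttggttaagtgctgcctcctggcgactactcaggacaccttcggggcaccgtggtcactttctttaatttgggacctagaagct
Slc6a13, chr6:121300038-121300287, plus strand: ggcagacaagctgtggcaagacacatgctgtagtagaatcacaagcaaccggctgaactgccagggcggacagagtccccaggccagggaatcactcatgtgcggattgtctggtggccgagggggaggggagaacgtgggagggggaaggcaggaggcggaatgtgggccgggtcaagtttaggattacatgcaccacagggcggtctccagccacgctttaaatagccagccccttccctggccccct
Slc6a12, chr6:121342324-121342573, plus strand: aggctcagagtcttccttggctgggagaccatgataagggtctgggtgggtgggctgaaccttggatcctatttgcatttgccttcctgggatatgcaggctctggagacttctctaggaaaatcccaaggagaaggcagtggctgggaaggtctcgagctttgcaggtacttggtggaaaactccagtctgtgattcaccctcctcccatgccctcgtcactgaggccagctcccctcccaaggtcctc
The match marked for Slc7a7 starts at position -141 from the annotated start, and the other 3 stretches hold none. A second match in Slc7a7 starts at position -1, at the end of the stretch shown, and is the same site that a window of another Slc7a7 start holds at position -243. Windows from 250 bases before to 50 bases after a start were found for 28 of the 37 members, some with several starts, which gave 46 windows. TGATGNAA, searched on both strands, occurred in 3 of them (6.52%), which belong to Slc7a7 and Slc1a4, where 3.97% of all 32851 windows hold it. TTCNNNGAA, the letters of a STAT site, likewise occurred in 3 (6.52%), beside 8.3% of all windows. These counts are a description of letters and carry no test.

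Among the light chains of Slc7, Slc7a7 (y+LAT1), which exports cationic amino acids in exchange for neutral ones and sodium, was at 1.04 and 0.872 TPM in sham, 5.05 and 4.50 TPM in intra-C and 2.1 and 4.78 TPM in intra-S livers. The groups did not overlap with sham in either comparison, and intra-S liver 1 was the lowest of the 4 tumor-bearing livers. The log2 fold changes were 2.51 ± 0.43 (edgeR adjusted p = 0.0262) and 2.13 ± 0.42 (adjusted p = 0.0303), or 5.72-fold and 4.38-fold. The value in intra-S livers was 2.58 without liver 1 and 1.48 without liver 2. Slc7a7 shares 7.0% of its exon bases with Oxa1l on the opposite strand, whose log2 fold changes were -0.60 and -0.31. Slc7a8 (LAT2), an exchanger of neutral amino acids, was at 0.328 and 0.568 TPM in sham, 1.27 and 1.70 TPM in intra-C and 1.47 and 1.37 TPM in intra-S livers. It was higher by 1.90 ± 0.36 (edgeR adjusted p = 0.0341) and 1.96 ± 0.36 (adjusted p = 0.0254) on the log2 scale, the latter being 1.86 and 2.06 without intra-S liver 1 or 2. Slc7a7 and Slc7a8 lie on chromosome 14, 302.1 kb apart, with 15 protein-coding genes between them. Both partner with Slc3a2, which passed the test in neither comparison.

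The most abundant Slc7 member, Slc7a2 (CAT2), a carrier of arginine and other cationic amino acids, was at 119 and 115 TPM in sham, 200 and 128 TPM in intra-C and 176 and 83.0 TPM in intra-S livers. The sham livers agreed closely while the intra-S livers lay on either side of them. The log2 fold changes were 0.69 ± 0.43 (edgeR adjusted p = 0.352) and 0.47 ± 0.43 (adjusted p = 0.503). Slc7a6os, the gene that is no carrier, was at 14.8 to 23.1 TPM over the 6 livers and was called in neither comparison. Of the other Slc7 members, Slc7a1, Slc7a4, Slc7a5 and Slc7a6 ranged from 0.113 to 2.14 TPM and none was called against sham in edgeR. DESeq2 called Slc7a1 (log2 fold change 1.81 ± 0.57, adjusted p = 0.00987) and Slc7a5 (1.71 ± 0.58, adjusted p = 0.0186) higher in intra-S livers. Slc7a15 had no count in sham livers, 28 and 11 counts in intra-C and 2 and 12 counts in intra-S livers. Against a limit of 3 counts in each sham liver it was at least 7.13-fold higher in the mean of the intra-C livers and at least 4.60-fold in the lower of them, with an adjusted p of 0.0683 in edgeR and 0.00592 in DESeq2. For intra-S livers the bound was 2.39-fold in the mean but 0.789-fold in liver 1, which did not exceed the sham limit. There the adjusted p was 0.106 in edgeR and 0.0416 in DESeq2.

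Slc38, the family of sodium-coupled neutral amino acid transporters, held the genes with the highest levels. Slc38a2 (SNAT2), the system A carrier that is induced when amino acids are short, was at 78.3 and 54.3 TPM in sham, 410 and 158 TPM in intra-C and 171 and 194 TPM in intra-S livers. Every tumor-bearing liver exceeded both sham livers, and intra-C liver 1 stood far above the rest. In intra-C livers the log2 fold change was 2.31 ± 0.49 (edgeR adjusted p = 0.0430), or 4.95-fold. It was 1.39 without intra-C liver 1 (adjusted p = 0.161) and 2.89 without intra-C liver 2 (adjusted p = 0.0574). In intra-S livers it was 1.76 ± 0.48 (adjusted p = 0.0656 in edgeR and 0.00352 in DESeq2), and it was 1.80 without intra-S liver 1 and 1.71 without liver 2. The difference between intra-S and intra-C livers, at -0.55 ± 0.47 (adjusted p = 0.619), was about as large as its standard error.

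Slc38a3 (SNAT3), the system N carrier of glutamine, histidine and asparagine, had the highest level of all members in sham livers. Its level was 690 and 781 TPM in sham, 614 and 505 TPM in intra-C and 123 and 374 TPM in intra-S livers. The intra-S livers were the lowest of the 6 and lay far apart. The log2 fold change in intra-S livers was -1.29 ± 0.47 (edgeR adjusted p = 0.129), and it was -0.72 without liver 1 and -2.23 without liver 2. With both livers in the fit, DESeq2 gave an adjusted p of 0.0400. In intra-C livers it was -0.20 ± 0.47 (adjusted p = 0.818). Slc38a4 (SNAT4), a system A carrier typical of liver, was at 516 and 586 TPM in sham, 471 and 447 TPM in intra-C and 346 and 284 TPM in intra-S livers. Its log2 fold changes were -0.08 ± 0.23 (edgeR adjusted p = 0.867) and -0.50 ± 0.23 (adjusted p = 0.201).

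A pair of Slc38 members with low levels in sham livers was called in intra-S livers. Slc38a1 (SNAT1), a system A carrier found widely outside hepatocytes, was at 0.230 and 0.140 TPM in sham, 0.537 and 0.572 TPM in intra-C and 1.33 and 0.734 TPM in intra-S livers. The 3 groups did not overlap and followed that order, but the direct log2 difference of intra-S from intra-C livers was 1.02 ± 0.43 (edgeR adjusted p = 0.372). Against sham, the log2 fold change was 2.79 ± 0.46 (edgeR adjusted p = 0.0191), or 6.94-fold, in intra-S livers and 1.77 ± 0.45 (adjusted p = 0.0660) in intra-C livers. In intra-S livers it was 2.24 without liver 1 and 3.20 without liver 2. Slc38a5 (SNAT5), a system N carrier, had 2 and 2 counts in sham, 5 and 8 counts in intra-C and 72 and 36 counts in intra-S livers. Summed over the livers, the ratio of intra-S to sham was 30.5, with an exact 95% interval of 11.6 to 114 that covers counting error only. Its log2 fold change was 4.89 ± 0.87 (edgeR adjusted p = 0.0232), 4.14 without intra-S liver 1 and 5.38 without liver 2. Markers of several cell types were also higher in the intra-S livers, as given above, and their part in the Slc38a5 values was not tested. The remaining Slc38 members, among them Slc38a9, a lysosomal arginine sensor, ranged from 0.0332 to 24.9 TPM and none was called against sham in edgeR or DESeq2. Slc38a1, Slc38a2 and Slc38a4 are neighbours on chromosome 15, with gaps of 44.0 kb and 295.1 kb and no other protein-coding gene between them. In intra-S livers their log2 fold changes were 2.79, 1.76 and -0.50.

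**Figure D4:**
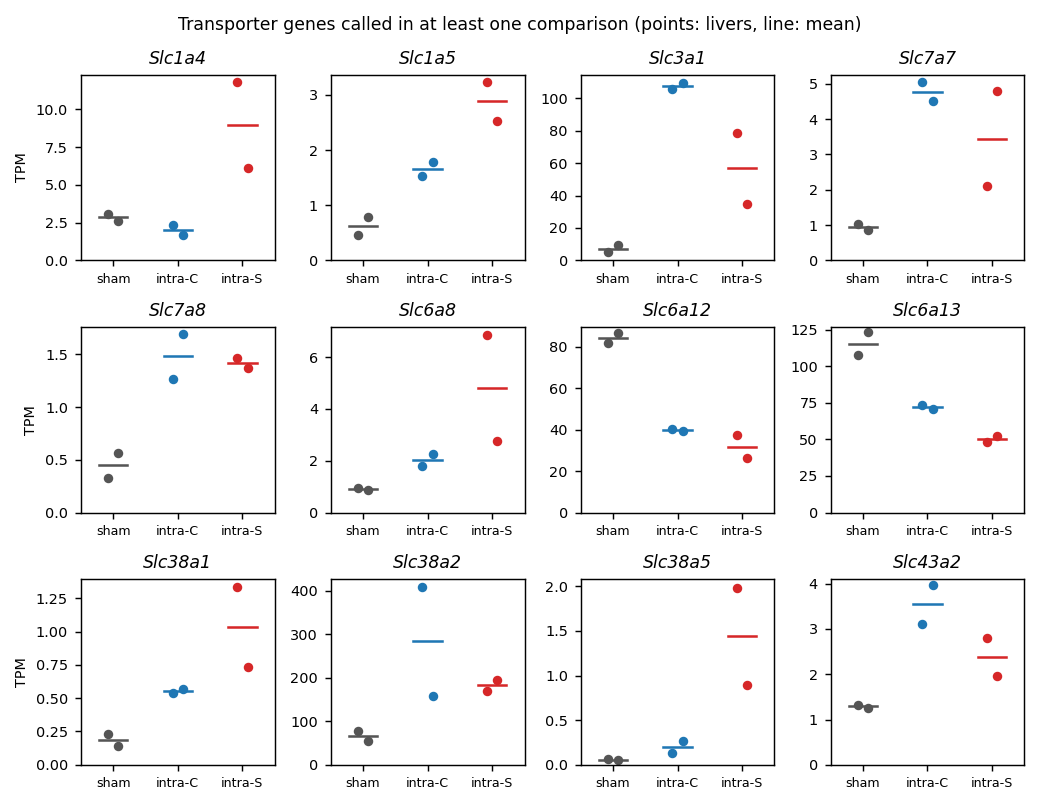
TPM in each liver (points) and group mean (lines) for the 12 transporter genes called in at least 1 comparison, each on its own linear axis from 0. Slc6a12 and Slc6a13 are the only panels in which the sham livers are highest, and Slc38a2 has its highest point in intra-C liver 1 (410 TPM).

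The exchangers of Slc1 were higher in intra-S livers. Slc1a4 (ASCT1), a carrier of alanine, serine and cysteine, was at 3.06 and 2.61 TPM in sham, 2.35 and 1.66 TPM in intra-C and 11.8 and 6.14 TPM in intra-S livers. The intra-S livers were the highest of the 6. The intra-C livers lay below the sham livers in TPM and overlapped with them in normalised CPM. The log2 fold change was 1.97 ± 0.41 (edgeR adjusted p = 0.0335), or 3.92-fold, against sham and -0.30 ± 0.40 (adjusted p = 0.673) in intra-C livers. The former was 1.36 without intra-S liver 1 and 2.40 without liver 2. Set directly against intra-C livers, the intra-S livers were higher by 2.27 ± 0.41, which passed the threshold in DESeq2 (adjusted p = 2.39e-04) and not in edgeR (adjusted p = 0.285). Slc1a5 (ASCT2), which also takes glutamine, was at 0.454 and 0.779 TPM in sham, 1.52 and 1.78 TPM in intra-C and 3.23 and 2.53 TPM in intra-S livers. The groups did not overlap, but the direct log2 difference of intra-S from intra-C livers was 0.92 ± 0.39 (edgeR adjusted p = 0.378). Against sham, the log2 fold change of Slc1a5 was 2.52 ± 0.41 (edgeR adjusted p = 0.0191), or 5.77-fold, in intra-S livers and 1.60 ± 0.41 (adjusted p = 0.0672) in intra-C livers. Leaving out intra-S liver 1 or 2 gave 2.28 and 2.73. The glutamate carriers Slc1a1 and Slc1a3 did not pass the filter, with at most 8 counts in any liver.

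The members called lower in intra-S livers in edgeR belong to Slc6, the family that also holds Slc6a8, called higher. Slc6a13 (GAT2), which carries GABA and taurine and is a liver and kidney gene, was at 107 and 123 TPM in sham, 73.3 and 71.0 TPM in intra-C and 48.3 and 52.3 TPM in intra-S livers. Each group was tight and the 3 did not overlap, but the direct log2 difference of intra-S from intra-C livers was -0.41 ± 0.19 (edgeR adjusted p = 0.397). Against sham, the log2 fold change was -0.90 ± 0.19 (edgeR adjusted p = 0.0356) in intra-S livers, or 1.87-fold lower, and -0.49 ± 0.19 (adjusted p = 0.163) in intra-C livers. The intra-S value was -0.89 and -0.91 without liver 1 or 2. Slc6a12 (BGT1), the betaine and GABA carrier known as an osmolyte transporter, was at 81.9 and 86.6 TPM in sham, 40.4 and 39.3 TPM in intra-C and 37.2 and 26.2 TPM in intra-S livers. All tumor-bearing livers lay at or below 40.4 TPM. It fell by 1.10 ± 0.25 on the log2 scale (edgeR adjusted p = 0.0417), or 2.15-fold, in intra-S livers, and the value in intra-C livers was -0.89 ± 0.25 (adjusted p = 0.0816 in edgeR and 0.0206 in DESeq2). Without intra-S liver 1 or 2 the former change was -1.43 and -0.83. The 2 genes are neighbours on chromosome 6, at chr6:121300288-121337721 and chr6:121342574-121365773, with 4.9 kb between them and the same strand. Of the Slc6 carriers of other solutes, the taurine carrier Slc6a6 was at 20.7 and 21.8 TPM in sham, 9.96 and 14.4 TPM in intra-C and 14.5 and 10.6 TPM in intra-S livers. Its log2 fold changes were -0.62 ± 0.26 (edgeR adjusted p = 0.187) and -0.45 ± 0.26 (adjusted p = 0.295).

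The creatine carrier Slc6a8 went up. It was at 0.947 and 0.868 TPM in sham, 1.81 and 2.27 TPM in intra-C and 6.87 and 2.75 TPM in intra-S livers, and the log2 fold change in intra-S livers was 2.72 ± 0.50 (edgeR adjusted p = 0.0245), or 6.62-fold. Without intra-S liver 1 it was 1.85 and without liver 2 it was 3.27. In intra-C livers it was 1.35 ± 0.48 (adjusted p = 0.138). Slc6a16, an orphan carrier, had 24 and 32 counts in sham livers, 2 and 0 in intra-C and 0 and 2 in intra-S livers, so that the summed level in sham was 23.6-fold (exact 95% interval 6.25 to 200) and 24.8-fold (6.55 to 210) that of these groups, with adjusted p of 0.0929 and 0.0777 in edgeR and 0.0342 and 0.0257 in DESeq2. Slc6a4 and Slc6a9 ranged from 0.323 to 7.96 TPM and were called against sham in neither tool.

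Of the 2 proton-coupled carriers, Slc36a1, found on lysosomes and at the cell surface, was at 10.4 and 10.9 TPM in sham, 6.52 and 8.95 TPM in intra-C and 2.92 and 8.15 TPM in intra-S livers. Its log2 fold changes were -0.28 ± 0.42 (edgeR adjusted p = 0.718) and -0.67 ± 0.43 (adjusted p = 0.341). Slc36a4 was at 2.12 and 2.14 TPM in sham, 4.46 and 3.52 TPM in intra-C and 8.12 and 3.38 TPM in intra-S livers, and its log2 fold changes were 1.10 ± 0.45 (adjusted p = 0.177) and 1.75 ± 0.45 (adjusted p = 0.0577). In edgeR neither gene was called, although the groups did not overlap with sham, and DESeq2 called Slc36a4 higher in intra-S livers (1.74 ± 0.49, adjusted p = 0.00394).

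In Slc43, Slc43a2 (LAT4) was at 1.32 and 1.27 TPM in sham, 3.12 and 3.97 TPM in intra-C and 2.81 and 1.96 TPM in intra-S livers, all 4 above sham. The log2 fold changes were 1.64 ± 0.28 (edgeR adjusted p = 0.0262) and 1.19 ± 0.28 (adjusted p = 0.0442). The second value was 0.85 without intra-S liver 1 and 1.47 without liver 2, and its call was the least stable of all, lost under 9 of 15 other settings. Slc43a1 (LAT3) was at 8.63 to 12.9 TPM in the 6 livers and was called in neither comparison against sham. The nucleobase carrier Slc43a3 was at 10.9 and 9.86 TPM in sham, 14.9 and 15.7 TPM in intra-C and 17.0 and 10.7 TPM in intra-S livers. Its log2 fold changes were 0.75 ± 0.28 (adjusted p = 0.146) and 0.72 ± 0.28 (adjusted p = 0.140).

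A comparison of intra-S with intra-C livers asks whether the metastatic liver differs from the premetastatic one. In edgeR 0 of the 35 members were called, beside 0% of all tested genes, and 7 members had a p under 0.05 before adjustment, as did 13.4% of all tested genes. DESeq2 called 3 members higher (Slc1a4, Slc38a5 and Slc38a11) and 1 lower (Slc6a9), and it called 240 genes (1.47%) higher and 287 (1.75%) lower over the whole table. Slc38a11 and Slc6a9 are named after their values were seen. Slc38a11 had 9 and 3 counts in intra-C and 110 and 27 counts in intra-S livers, and the glycine carrier Slc6a9 had 4.25 and 7.96 TPM in intra-C and 2.52 and 2.1 TPM in intra-S livers. In CPM the groups did not overlap for 9 members that were higher and 9 that were lower, and 43.3% of all tested genes did not overlap. Between the 2 intra-S livers, 13 of the 35 members (37.1%) differed more than 2-fold in CPM, beside 25.1% of all tested genes, whereas 1 member (2.86%) did so in sham (Slc6a4, beside 6.81% of all tested genes) and 1 in intra-C livers (Slc38a2, beside 11.2%). Without intra-S liver 2, edgeR called 7 members higher and 3 lower of 35, beside 7.53% and 9.02% of all tested genes, so that the lower calls (8.57%) were near the background. Without intra-S liver 1 it called 0 members, beside 0.137% and 0.176% of all tested genes.

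Genes around these carriers were read from lists of the amino acid response, of other amino acid carriers, of carrier partners, of glutamine, glutamate and proline enzymes and of lysosomal amino acid sensing. Of 30 tested genes of the amino acid response, which cells switch on through ATF4 when amino acids are short, 1 was called higher in intra-C and 5 in intra-S livers (3.33% and 16.7%, beside 4.92% and 6.78% of all tested genes) and 0 lower in either. Chac1, which degrades glutathione, was at 3.82 and 1.81 TPM in sham, 23.7 and 12.5 TPM in intra-C and 20.1 and 13.0 TPM in intra-S livers, with log2 fold changes of 2.89 ± 0.53 (edgeR adjusted p = 0.0316) and 2.87 ± 0.53 (adjusted p = 0.0253). Asparagine synthetase, Asns, was at 0 and 0.172 TPM in sham, 1.05 and 0.907 TPM in intra-C and 3.99 and 6.38 TPM in intra-S livers. All 4 tumor-bearing livers lay above sham, and the edgeR adjusted p was 0.0650 in intra-C and 0.0156 in intra-S livers. The serine synthesis gene Psat1 was at 0.267 and 0.367 TPM in sham, 2.62 and 1.32 TPM in intra-C and 1.97 and 6.21 TPM in intra-S livers, so that intra-S liver 1 lay within the range of the intra-C livers, and its log2 fold change in intra-S livers was 3.95 ± 0.70 (edgeR adjusted p = 0.0232). The mitochondrial folate enzyme Mthfd2 was at 0.228 and 0.439 TPM in sham, 0.919 and 1.22 TPM in intra-C and 4.05 and 4.26 TPM in intra-S livers, where it was higher by 3.92 ± 0.45 (adjusted p = 0.00819) on the log2 scale. Cth, a cysteine synthesis enzyme and the most abundant gene of this list, was at 2184 TPM in intra-S liver 1 and at 205 to 626 TPM in the other 5 livers, and Ddit4, an inhibitor of mTORC1, ranged from 2.53 to 443 TPM with sham livers at 38.8 and 2.53 TPM. Neither was called.

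Of 14 tested enzymes of glutamine, glutamate, asparagine and proline, 0 were higher and 1 lower in intra-C livers, and 1 (Asns, given above) was higher and 4 were lower in intra-S livers. The lower calls were 7.14% in intra-C and 28.6% in intra-S livers, beside 2.38% and 3.95% of all tested genes, and the 1 higher call (7.14%) was near the 6.78% of all tested genes. The liver form of glutaminase, Gls2, was at 432 and 471 TPM in sham, 165 and 172 TPM in intra-C and 152 and 98.6 TPM in intra-S livers. Its log2 fold change was -1.23 ± 0.28 in intra-C livers, at the threshold itself and not called, and in intra-S livers -1.55 ± 0.28 (edgeR adjusted p = 0.0244). On the log2 scale, the proline-degrading enzyme Prodh fell by 2.34 ± 0.45 (adjusted p = 0.0290) and Aldh4a1, of the same route, fell by 2.15 ± 0.24 (adjusted p = 0.00757). Aspg, an asparaginase, fell by 1.42 ± 0.22 (adjusted p = 0.0161). In intra-C livers Aldh4a1 alone of the list was called, at -1.17 ± 0.23 (adjusted p = 0.0370). Got1, the cytosolic aspartate aminotransferase and most abundant of the list, was at 2498 TPM in intra-S liver 1 and at 384 to 978 TPM in the other 5, and glutamate dehydrogenase, Glud1, was at 447 to 734 TPM in the 6 livers. Neither was called.

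**Figure D5:**
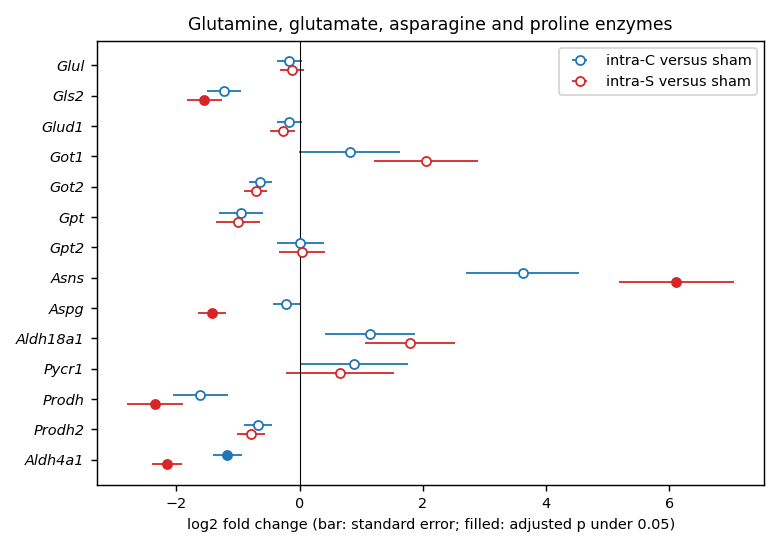
Log2 fold change against sham of 14 enzymes of glutamine, glutamate, asparagine and proline metabolism in intra-C (blue) and intra-S livers (red), with bars of 1 standard error and filled points where the adjusted p was under 0.05. The 4 filled points to the left of 0 in intra-S livers are Gls2 (-1.55), Aspg (-1.42), Prodh (-2.34) and Aldh4a1 (-2.15).

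The other lists held few calls. Of 17 tested other amino acid carriers, 1 was higher in intra-C livers (Slc15a3) and 2 in intra-S livers (Slc15a3 and Sfxn3), or 5.88% and 11.8%, beside 4.92% and 6.78% of all tested genes. Slc15a3, a lysosomal carrier of histidine and peptides, was at 0.638 and 0.953 TPM in sham, 4.65 and 6.94 TPM in intra-C and 6.02 and 6.70 TPM in intra-S livers, with log2 fold changes of 3.03 ± 0.35 (edgeR adjusted p = 0.0100) and 3.29 ± 0.35 (adjusted p = 0.00689). The ornithine carrier Slc25a15 (165 to 458 TPM) and the glutamate carrier Slc25a22 (46.0 to 178 TPM), the most abundant of the list, were not called. Of 2 tested carrier partners, Cd44 was higher in both comparisons, by 2.46 ± 0.40 (adjusted p = 0.0235) and 2.70 ± 0.40 (adjusted p = 0.0153), while Bsg (453 to 1560 TPM) was not called. Of 24 tested genes of lysosomal sensing, 1 (Tfe3, a transcription factor of lysosomal genes) was higher in intra-C and 0 in intra-S livers, where the former share (4.17%) was near that of all tested genes, and the Ragulator subunits Lamtor2 (38.9 to 151 TPM) and Lamtor4 (43.4 to 119 TPM), the most abundant, were not called.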

How the data were processed

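Poly(A) RNA of whole livers was sequenced in 6 samples. Alignment by the authors used HISAT2 2.1.0 and the build mm10. They assigned them to exons with featureCounts (Subread 2.0.6) and deposited a raw count for each gene and liver. They also deposited TPM values, made from these counts and gene lengths. The gene annotation and the strand setting are not given in the sources used here. The labels name the livers of a group as replicates, and p-values measure the spread between them.

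The counts were tested here with edgeR 4.0.16 in R 4.3.3 (quasi-likelihood test, TMM, filterByExpr with a count minimum of 10, 1 fit over all 6 livers, Benjamini-Hochberg adjustment over 16370 genes). Standard errors were derived from the fold change and its F statistic. TPM values served for levels. DESeq2 1.42.0 and limma 3.58.1 (log2 of TPM plus 1 or 0.1) were alternatives, beside other filters, other scalings, fewer libraries and a block by replicate number. The procedure was tested on simulated data with the same spread in every group, which does not cover a group as variable as intra-S. With 2 livers per group a permutation test cannot pass 0.05. At 32838321 to 43368309 counts per liver, a count of 0 allows up to 3 counts, or 0.0679 to 0.0928 CPM. Intervals cover counting error only. Exon overlaps came from GENCODE M21 and positions from RefSeq GRCm38.p6.

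Members and gene lists were chosen with earlier results of these data known. Named in full are members called in a comparison and the 3 of each family with the highest mean TPM, and from each list up to 4 called and 2 other genes with the highest mean TPM. 2 further rows matched by symbol, and 2 genes of the lists, are not reported here.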

Additional observations from a re-analysis of the deposited data

How the results depend on the processing

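For the 22 members given in full, 986 fold changes were recomputed under other settings: 838 stayed on the same side of the threshold, 91 lost and 57 gained a call, and 0 called values changed sign. In intra-C against sham livers, where 5 members were higher and 0 lower, DESeq2 called 8 and 2, a fit of only the 2 groups 12 and 4, limma on log2(TPM + 1) 3 and 2, limma on log2(TPM + 0.1) 2 and 2, and library sizes without TMM 1 lower. In intra-S against sham livers, where 9 were higher and 2 lower, DESeq2 called 14 and 4, a fit of only the 2 groups 0 and 0, limma on log2(TPM + 1) 5 and 4, and limma on log2(TPM + 0.1) 6 and 4, with Slc1a4, Slc7a7 and Slc43a2 lost among the higher calls. Between intra-S and intra-C livers, where 0 were called, DESeq2 called 3 higher and 1 lower. Leaving out each liver in turn gave 0 to 12 higher and 0 to 4 lower in intra-C against sham, 0 to 16 and 0 to 7 in intra-S against sham, and 0 to 7 and 0 to 3 between the tumor groups. There, a lone liver is assumed to vary like the other groups, and the cause of these shifts was not tested. The highest counts against sham came without intra-S liver 1 or 2 for intra-C (12 and 4 each) and without intra-S liver 2 for intra-S (16 and 7).

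The replicate numbers did not pair the livers. The correlations of same-numbered deviations were -0.0391 (sham and intra-C), 0.121 (sham and intra-S) and 0.0760 (intra-C and intra-S). With the replicate block, 1 member in place of 2 was lower in intra-S livers (Slc6a13 was lost), and 9 were higher as before, with Slc43a2 lost and Slc38a2 gained.

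Over all genes, 806 were higher and 389 lower in intra-C and 1110 and 646 in intra-S livers. DESeq2 called 1709 and 1110 and then 2065 and 1465, a fit of only the 2 groups 2548 and 2223 and then 276 and 116, limma on log2(TPM + 1) 497 and 896 and then 685 and 1553, limma on log2(TPM + 0.1) 589 and 890 and then 804 and 1476, and library sizes without TMM 569 and 801 and then 838 and 1116. The replicate block gave 673 and 259 and then 954 and 553. Without one liver, 0 to 2546 genes were higher and 0 to 2111 lower in intra-C, 0 to 3010 and 0 to 2683 in intra-S against sham, and 0 to 1312 and 0 to 1572 between the tumor groups. Without TMM the median log2 fold change of all genes moved from 0.01 to -0.25 and from 0.04 to -0.23. With 2 livers per group and a call that rests on a spread pooled over 3 groups, members under 1 TPM and folds near 2 are at the limit of what these data can show.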
